A study of Mus musculus with 6 samples.

Results

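A set of 10 genes of the Fat and Dachsous cadherins and of the planar cell polarity system were followed in RNA-seq of mouse tailbuds at E10.5 (E, embryonic day). They were chosen by symbol as Fat1, Fat3, Fat4, Dchs1, Celsr1, Vangl1, Vangl2, Prickle1, Ptk7 and Scrib, which are 10 of the 54134 genes in the count table. All 10 passed the filter on low counts and were among the 12733 genes tested. Cdx2P:Nr6a1 embryos (2 libraries) carried an Nr6a1 transgene driven by Cdx2 regulatory sequence, introduced by pronuclear injection. The wildtype group (4 libraries) consisted of embryos labelled wildtype, also collected at E10.5. Whether they came from the same injections is not given in the sources used here. The study's methods give a C57BL/6 background for its mouse lines, without naming the injected embryos. Nr6a1 is an orphan nuclear receptor, and the comparison asked how the tailbud transcriptome responded when its expression was prolonged by the transgene. Each injected embryo that carries a transgene is an independent integration event, so copy number and insertion site can differ between the 2 Cdx2P:Nr6a1 libraries. The study's methods state that copy number was assayed in each embryo by droplet digital PCR, and those values were not used here. Nr6a1 counts do not separate the transgene from the endogenous gene, and the Cdx2 promoter acts in several tissues of the tailbud.

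Planar cell polarity aligns cells within the plane of a tissue. In the Fat and Dachsous system, a very large cadherin on one cell binds its partner on the neighbouring cell, and unequal binding across a field of cells gives direction. In the core system, Celsr cadherins bridge neighbouring cells, and Frizzled and Dishevelled gather on one side of a cell while Vangl and Prickle gather on the opposite side. In vertebrates both systems are known for their part in convergent extension, the cell rearrangement that narrows and lengthens the body axis, and loss of Vangl2, Celsr1, Ptk7 or Scrib is known to leave the mouse neural tube open.

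Library totals ranged from 44073460 to 67183802 counts, and the normalization factors from 0.992 to 1.01. Nr6a1 was measured at 3.91, 5.18, 5.53 and 6.89 CPM (its counts scaled to a common library total) in wildtype replicates 1 to 4 and at 23.4 and 33.8 CPM in Cdx2P:Nr6a1 replicates 1 and 2. The 2 groups did not overlap, and Nr6a1 rose by 2.41 on the log2 scale (SE 0.20, adjusted p = 0.00132, edgeR quasi-likelihood test). Markers of the labelled tissue were present, with the tailbud mesoderm factors T at a mean of 1095 CPM and Tbx6 at 249 CPM in wildtype. Among 9 marker lists for cells that a tailbud can hold, the neural tube list had 2 of 6 tested genes higher. The other 8 lists had none that passed the test, which 1.59% of all genes tested passed. The 2 neural genes were Sox1 (1.18 ± 0.217 CPM, SD, n = 4, against 4.02 ± 1.51 CPM, n = 2, adjusted p = 0.0116) and Sox3 (5.32 ± 0.750 against 12.8 ± 2.89 CPM, adjusted p = 0.00714), transcription factors of neural progenitors. Without Cdx2P:Nr6a1 replicate 2, the adjusted p of Sox3 was 0.0791, and Sox1 did not pass the filter on low counts when either Cdx2P:Nr6a1 library was left out. The summed level of the neural list was 438 to 482 CPM in wildtype and 460 to 500.5 CPM in Cdx2P:Nr6a1. Of its 12 listed genes 6 were below the filter on low counts, and 1 of these, the motor neuron progenitor factor Olig2, was at 0 in every library. The genes below the filter had wildtype means of 1.26 CPM or less. Sox2, another neural progenitor gene of the list, was at 28.2 CPM in wildtype and 31.8 CPM in Cdx2P:Nr6a1. The summed presomitic mesoderm list was 1986 to 2257 against 1834 to 2054 CPM, and the gut endoderm list 370 to 481 against 471 to 555 CPM. The part of these shifts in the values that follow was not tested, and in whole tailbuds a smaller number of cells of a type and less RNA per cell cannot be told apart.

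None of the 10 members passed the test in Cdx2P:Nr6a1 tailbuds (edgeR quasi-likelihood test, false discovery rate 0.05 over all genes tested), against 1.59% of all genes tested. At an unadjusted p below 0.05 there were 3 members, Fat1, Fat3 and Dchs1, where 1342 of the 12733 genes tested lay below that value. Both Cdx2P:Nr6a1 libraries lay outside the range of all 4 wildtype libraries for 3 members, Fat1, Fat3 and Vangl1, and the same was true of 18.6% of all genes tested. The median log2 fold change over the 10 members was -0.06, beside -0.0007 over all genes tested, with 3 members higher and 7 lower. Other tools gave other counts for the same libraries. The edgeR likelihood ratio test called 1 member, Fat3 (3.15% of all genes called), and DESeq2 called Fat1 and Fat3 (3.75% called). Limma voom called no member (1.86% called), with 3 members at an unadjusted p below 0.05, and a fit with no filter on low counts called Fat1 and Fat3 (2.69% called).

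**Figure D1:**
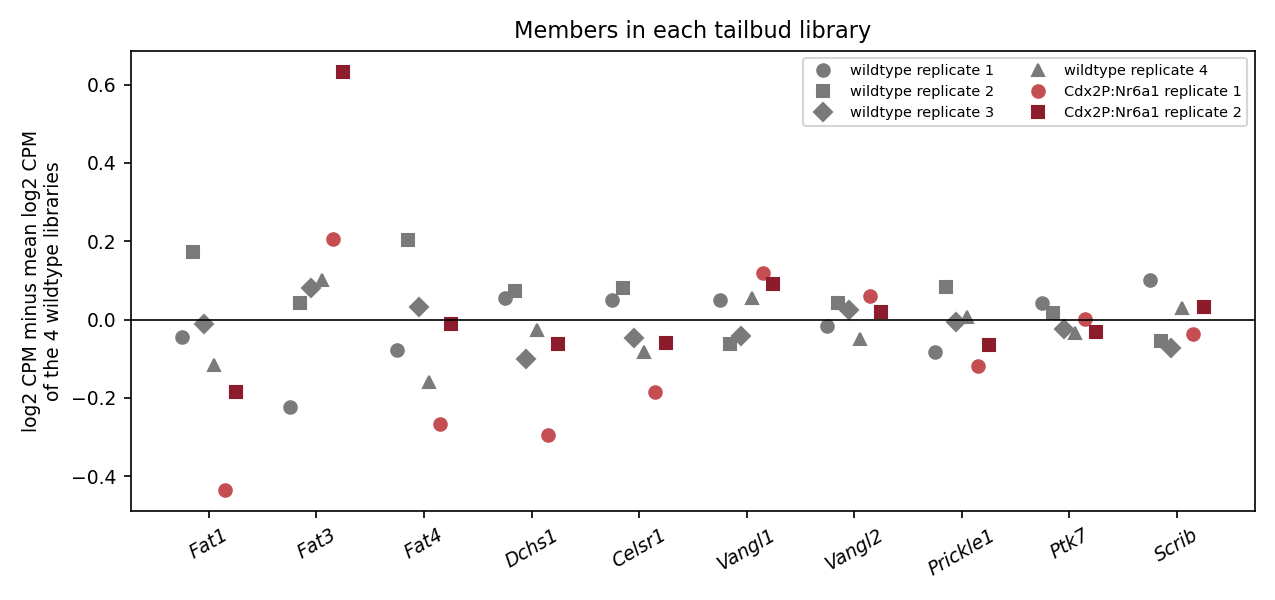
Each point is 1 library, plotted as its log2 CPM minus the mean log2 CPM of the 4 wildtype libraries, for each member on the horizontal axis. Both Cdx2P:Nr6a1 libraries lie below all wildtype libraries for Fat1 and above them for Fat3 and Vangl1, and the Fat and Dachsous cadherins are spread more widely than Vangl2, Ptk7 and Scrib.

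The Fat and Dachsous cadherins held the 3 members with the lowest p. Fat3 is a giant protocadherin best known for shaping neurons and their dendrites, in the retina among other places (chr9:15910189-16501285, minus strand, GRCm38/mm10, 29 joined exons). It was measured at 42.7, 51.3, 52.7 and 53.5 CPM in wildtype replicates 1 to 4 and at 57.4 and 77.3 CPM in Cdx2P:Nr6a1 replicates 1 and 2. Both transgenic libraries were above every wildtype library, replicate 2 by a wide margin and replicate 1 by less than the distance between wildtype replicates 1 and 2. The means were 50.03 ± 5.0 CPM (SD, n = 4) in wildtype and 67.4 ± 14.0 CPM (n = 2) in Cdx2P:Nr6a1. The log2 fold change was 0.43 (SE 0.12, 95% interval 0.16 to 0.70), and it did not pass the test (adjusted p = 0.157, edgeR quasi-likelihood test). The adjusted p for Fat3 was 0.0324 with the likelihood ratio test and 0.0114 with DESeq2. When Cdx2P:Nr6a1 replicate 2 was left out, the log2 fold change of Fat3 dropped to 0.19, and when replicate 1 was left out it came to 0.63. The study also showed Fat3 among the genes of a neural list, taken from other single-cell data, that were below its false discovery threshold in these same libraries. The direction of Fat3 here is therefore not independent evidence.

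Fat1, the most abundant of the Fat cadherins in these tailbuds and a regulator of actin organisation at cell contacts, had values in the other direction (chr8:44935447-45052257, plus strand, 31 joined exons). It was measured at 686, 796, 702 and 652 CPM in the wildtype replicates and at 523 and 622 CPM in the Cdx2P:Nr6a1 replicates. Both transgenic libraries were below every wildtype library, with replicate 1 the lower and replicate 2 nearer to the wildtype range. The means were 709 ± 61.7 CPM and 572 ± 70.4 CPM, and the log2 fold change was -0.31 (SE 0.09, 95% interval -0.52 to -0.11). It did not pass the test (adjusted p = 0.174, edgeR quasi-likelihood test), while its adjusted p was 0.00974 with DESeq2. The log2 fold change of Fat1 came to -0.19 with replicate 1 of Cdx2P:Nr6a1 left out and to -0.45 with replicate 2 left out. For both Fat1 and Fat3 the exact two-sided permutation test gave p = 0.0667, which is the smallest value that 2 libraries against 4 can give (15 arrangements).

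Dchs1, which encodes the Dachsous ligand of Fat4, was measured at 150, 151, 134 and 141 CPM in wildtype and at 117 and 138 CPM in Cdx2P:Nr6a1 (chr7:105752990-105787654, minus strand). Replicate 1 was below all wildtype libraries, but replicate 2 lay between wildtype replicates 3 and 4, so the groups overlapped. The log2 fold change was -0.18 (SE 0.08, 95% interval -0.35 to -0.0068) and did not pass the test (adjusted p = 0.452). Fat4, the receptor of this pair, was measured at 57.5, 69.9, 62.0 and 54.4 CPM in wildtype and at 50.4 and 60.3 CPM in Cdx2P:Nr6a1 (chr3:38886940-39011985, plus strand). Its groups also overlapped, and the log2 fold change was -0.14 (SE 0.10, 95% interval -0.38 to 0.09, adjusted p = 0.773). The ratio of Dchs1 to Fat4 per length was 3.70 ± 0.391 (SD, n = 4) in wildtype and 3.59 ± 0.0426 (n = 2) in Cdx2P:Nr6a1, and the Cdx2P:Nr6a1 ratios lay inside the wildtype range. Leaving out a Cdx2P:Nr6a1 library moved both genes by more than 1.5 times: with replicate 1 left out the log2 fold change was -0.06 for Dchs1 and -0.02 for Fat4, and with replicate 2 left out it was -0.31 and -0.29. Leaving out wildtype replicate 2 gave -0.07 for Fat4.

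The make-up of the Fat family can be read per length, as CPM divided by the gene's length in kilobases (RPKM). In wildtype tailbuds Fat1 made up 87.3 ± 0.848% of the summed Fat family level (SD, n = 4), Fat4 6.84 ± 0.225%, Fat3 4.51 ± 0.545% and Fat2 1.30 ± 0.438%. In Cdx2P:Nr6a1 tailbuds the share of Fat1 was 83.7 ± 0.414% (n = 2) and that of Fat3 7.14 ± 0.580%. The Fat3 share was 4.0, 4.13, 4.75 and 5.16% in the wildtype replicates and 6.73 and 7.55% in the Cdx2P:Nr6a1 replicates. The wildtype and Cdx2P:Nr6a1 shares of Fat3 did not overlap, with a gap wider than the spread within either group. Per length there were 22.1, 21.3, 18.3 and 16.7 Fat1 reads for each Fat3 read in wildtype, and 12.5 and 11.0 in Cdx2P:Nr6a1. This ratio was looked at once the values of both genes were known and is given without a test. Since shares are relative, they show unequal change of the family members and not which member changed.

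The regulatory sequence at the start of Fat3 is shown because Fat3 was the member with the lowest p, beside that of Ptk7, the most abundant member. Both are the 250 bases before the RefSeq transcription start on GRCm38.p6, read 5′ to 3′ along the gene, with CG dinucleotides in capitals. The Fat3 stretch lies at chr9:16502055-16502304 on the minus strand, where the RefSeq start is 769 bases upstream of the first base of the gene model used for counting. The Ptk7 stretch lies at chr17:46629505-46629754 on the minus strand, directly before the first counted base.
Fat3: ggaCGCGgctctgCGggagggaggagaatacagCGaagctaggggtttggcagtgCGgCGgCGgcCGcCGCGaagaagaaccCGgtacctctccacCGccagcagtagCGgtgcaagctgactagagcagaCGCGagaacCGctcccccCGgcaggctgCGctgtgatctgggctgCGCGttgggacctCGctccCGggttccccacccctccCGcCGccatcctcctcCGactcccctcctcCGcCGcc
Ptk7: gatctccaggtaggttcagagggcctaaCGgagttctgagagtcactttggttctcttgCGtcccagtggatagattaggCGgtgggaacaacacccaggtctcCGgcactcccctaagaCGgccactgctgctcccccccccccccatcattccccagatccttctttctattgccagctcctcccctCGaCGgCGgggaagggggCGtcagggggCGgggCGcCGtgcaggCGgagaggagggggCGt

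The Fat3 stretch held 27 CG dinucleotides and the Ptk7 stretch 14. RefSeq windows of 300 bases (250 before to 50 after a start) were found for 6 of the 10 members, with 7 windows in all since Prickle1 had 2. They held 35 CG dinucleotides for Fat3, 39 and 20 for Prickle1, 22 for Ptk7, 21 for Vangl2, 13 for Fat4 and 2 for Fat1, with a median of 7 over all 32851 windows. Nr6a1 is known to bind direct repeats of the nuclear receptor half-site AGGTCA. That half-site was searched on both strands, and it was found in 16.3% of all windows and in 1 of the 7 member windows. The match was in Fat1, in the stretch below at chr8:44950215-44950244 on the plus strand, with the half-site on the opposite strand in capitals.
Fat1: tggggagacactTGACCTtgcttctgcttc

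The half-site begins at base 20, counting as base 1 a RefSeq start that lies 14761 bases downstream of the first base of the counted Fat1 gene model, so the match is inside the gene and not at its first counted exon. A match of 6 letters is a description of the sequence and not a binding site. The absence of a match in the other windows, which do not cover Dchs1, Celsr1, Vangl1 or Scrib, says only that these letters are not in those 300 bases.

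The core planar polarity members were nearer to each other in the 2 groups. Celsr1, the atypical cadherin that joins polarity complexes across cell borders, was measured at 391, 399, 366 and 357 CPM in wildtype and at 332 and 362 CPM in Cdx2P:Nr6a1 (chr15:85898929-86033777, minus strand). Replicate 1 was below the wildtype range and replicate 2 inside it. The log2 fold change was -0.13 (SE 0.06, 95% interval -0.27 to 0.02, adjusted p = 0.564), which came to -0.06 with replicate 1 of Cdx2P:Nr6a1 left out and to -0.20 with replicate 2 left out.

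Vangl2, a 4-pass membrane protein and the main Vangl gene of the early embryo, was measured at 133, 138, 137 and 130 CPM in wildtype and at 140 and 136 CPM in Cdx2P:Nr6a1 (chr1:172000960-172028444, minus strand). Its groups overlapped, and the log2 fold change was 0.03 (SE 0.05, 95% interval -0.07 to 0.14, adjusted p = 0.906). Its paralogue Vangl1 was measured at 30.3, 28.0, 28.5 and 30.4 CPM in wildtype and at 31.8 and 31.2 CPM in Cdx2P:Nr6a1 (chr3:102153583-102204693, minus strand). Both transgenic libraries were above all wildtype libraries by a narrow gap, and the log2 fold change of 0.10 (SE 0.06, 95% interval -0.04 to 0.23) did not pass the test (adjusted p = 0.691). Per length there were 4.70 ± 0.331 Vangl2 reads for each Vangl1 read in wildtype (SD, n = 4) and 4.49 ± 0.0373 in Cdx2P:Nr6a1 (n = 2), and the Cdx2P:Nr6a1 values lay inside the wildtype range.

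Prickle1, a cytoplasmic LIM-domain protein that acts with Vangl, was measured at 174, 195, 183 and 185 CPM in wildtype and at 170 and 176 CPM in Cdx2P:Nr6a1 (chr15:93499114-93595891, minus strand). Replicate 1 was just below the wildtype range and replicate 2 just inside it, with a log2 fold change of -0.10 (SE 0.05, 95% interval -0.22 to 0.02, adjusted p = 0.600). Within each family 1 gene held most of the level in both groups. Celsr1 made up 93.8 ± 0.446% of the summed Celsr level per length in wildtype and 92.6 ± 0.213% in Cdx2P:Nr6a1, and Prickle1 made up 90.5 ± 0.441% and 89.7 ± 0.261% of the Prickle level. Vangl2 made up 82.4 ± 1.02% and 81.8 ± 0.124% of the Vangl level, and Dchs1 made up 99.0 ± 0.156% and 99.0 ± 0.0456% of the Dachsous level. The paralogues Dchs2, Celsr3 and Prickle4 were below the filter on low counts and were not tested.

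Ptk7 and Scrib act beside the core genes. Ptk7 is a catalytically inactive receptor tyrosine kinase that works as a Wnt co-receptor in polarity signalling, and Scrib is a scaffold of the basolateral membrane that binds Vangl2. Ptk7 was measured at 1778, 1745, 1699 and 1684 CPM in wildtype and at 1727 and 1690 CPM in Cdx2P:Nr6a1 (chr17:46564451-46629504, minus strand). The transgenic libraries lay within the wildtype range, and the log2 fold change was -0.02 (SE 0.04, adjusted p = 0.937) with a 95% interval from 0.926-fold to 1.05-fold, the narrowest of the 10 members. Scrib was measured at 234, 210, 208 and 223 CPM in wildtype and at 213 and 224 CPM in Cdx2P:Nr6a1 (chr15:76047158-76069784, minus strand). Its transgenic libraries also lay within the wildtype range, and the log2 fold change was -0.01 (SE 0.06, 95% interval -0.15 to 0.13, adjusted p = 0.983).

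**Figure D2:**
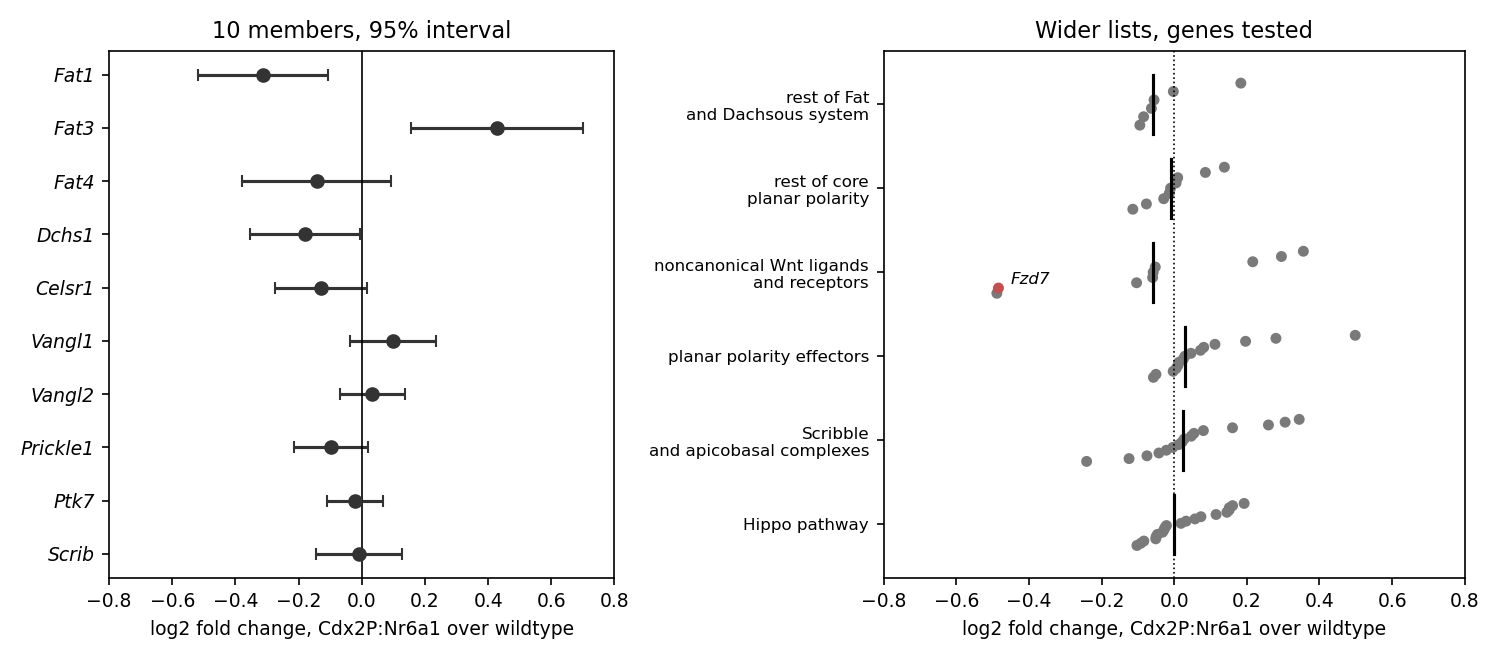
Left, log2 fold change of Cdx2P:Nr6a1 over wildtype for each member with its 95% interval from edgeR. Right, the same quantity for each tested gene of 6 wider lists, with the list median as a black bar and the 1 gene that passed the test, Fzd7 (log2 fold change -0.48), in red. The intervals of Fat1, Fat3 and Dchs1 do not cross 0, though none of the 3 passed the test over all genes.

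The levels of the 10 members differed far more between genes than between groups. In wildtype, per length, Ptk7 was highest at 406 RPKM, above 99.6% of the genes tested. Fat1 (45.3 RPKM) and Prickle1 (42.4 RPKM) came next, and their wildtype ranges overlapped. Celsr1 (34.3 RPKM) and Scrib (33.9 RPKM) followed, also with overlapping ranges, ahead of Vangl2 (19.2 RPKM) and Dchs1 (13.05 RPKM), which overlapped with no neighbour. Vangl1 (4.10 RPKM) and Fat4 (3.55 RPKM) overlapped with each other, and Fat3 was lowest at 2.33 RPKM, above 22.6% of the genes tested. The 2 members with the lowest p thus stood near opposite ends of this order.

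**Figure D3:**
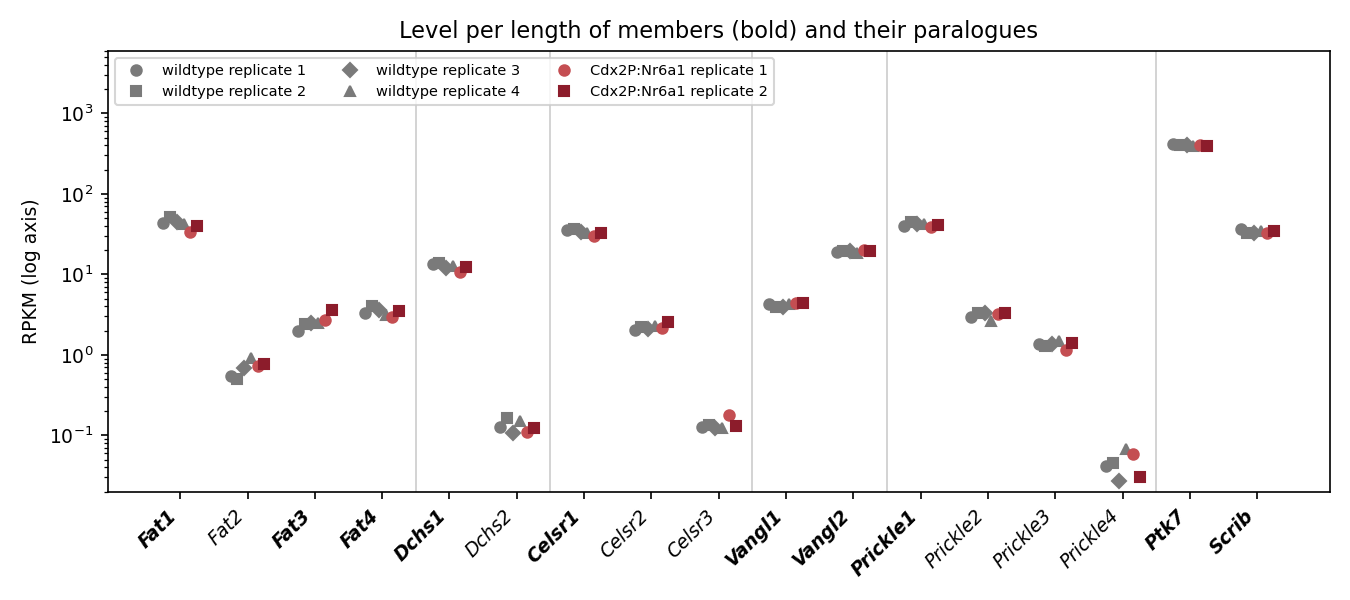
RPKM on a log axis for each member (bold) and each of its paralogues, grouped by family, with 1 point for each library. Within the Fat, Dachsous, Celsr, Vangl and Prickle families a single gene, Fat1, Dchs1, Celsr1, Vangl2 or Prickle1, stands well above the others in all 6 libraries, and Ptk7 is the highest gene plotted.

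The members were not spread evenly over the libraries. Cdx2P:Nr6a1 replicate 1 was the lowest of the 6 libraries for 5 members, Fat1, Fat4, Dchs1, Celsr1 and Prickle1, and wildtype replicate 2 was the highest for the same 5. Cdx2P:Nr6a1 replicate 2 was lowest for no member and highest for 1, Fat3. The log2 fold changes of Fat1, Fat4, Dchs1, Celsr1 and Prickle1 were therefore nearer to 0 without Cdx2P:Nr6a1 replicate 1. That of Fat3 was nearer to 0 without Cdx2P:Nr6a1 replicate 2. With 1 Cdx2P:Nr6a1 library left, the spread came from the wildtype libraries, and the lone library was assumed to vary like them. Nr6a1 was lower in Cdx2P:Nr6a1 replicate 1 (23.4 CPM) than in replicate 2 (33.8 CPM).

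**Figure D4:**
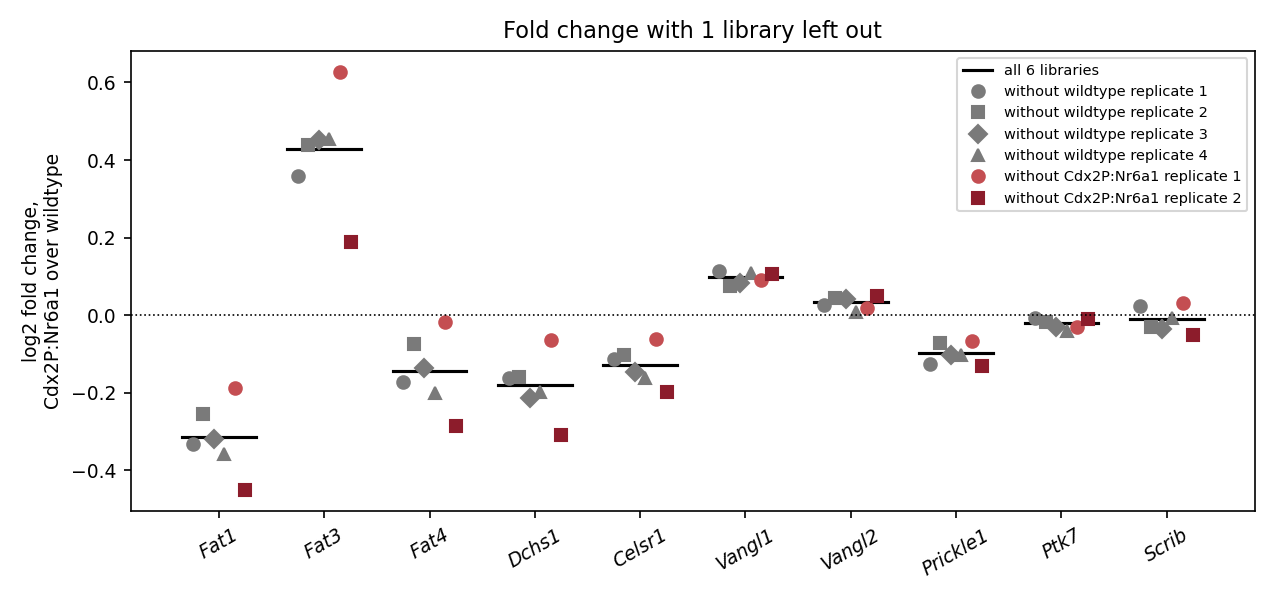
Log2 fold change of Cdx2P:Nr6a1 over wildtype for each member, with all 6 libraries (black bar) and with 1 library left out (points). Fat3 ranges from 0.19 to 0.63 and Fat1 from -0.45 to -0.19, while Vangl1, Vangl2, Ptk7 and Scrib each stay within a narrow band, that of Scrib on both sides of 0.

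Counting error was small beside the spread between libraries for the Fat cadherins: for Fat3, counting alone gives a coefficient of variation of 2.18% at its lowest count, and the wildtype libraries had one of 9.99%. The smallest count of any member in any library was 1368, for Vangl1 in wildtype replicate 4. Exons of Fat1, Fat4, Dchs1 and Vangl1 share bases with genes on the opposite strand, covering 3.11, 8.68, 5.86 and 0.112% of their exon bases. Whether counting used strand is not given in the sources used here, so reads on those bases could not be assigned with certainty. No member shared exon bases with another gene on its own strand, and Fat3, Celsr1, Vangl2, Prickle1, Ptk7 and Scrib shared none on either strand.

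Of all genes tested 1.59% passed the test, and in 6 wider lists of the pathway 1 of 75 tested genes (of 80 listed) did. This was Fzd7, a Wnt receptor used in both canonical and polarity signalling, which was lower in Cdx2P:Nr6a1 (chr1:59482424-59486955, plus strand, a single joined exon). Fzd7 was measured at 116, 117, 116 and 122 CPM in wildtype and at 82.5 and 86.4 CPM in Cdx2P:Nr6a1. The groups were far apart relative to the spread within each, with means of 117.7 ± 2.90 CPM (SD, n = 4) and 84.5 ± 2.78 CPM (n = 2). Fzd7 fell by 0.48 on the log2 scale (SE 0.05, adjusted p = 0.00310, edgeR quasi-likelihood test), and it passed the test under all 15 alternatives, with log2 fold changes from -0.52 to -0.45. Over the 75 genes, 12 lay at an unadjusted p below 0.05 and 14 had both Cdx2P:Nr6a1 libraries outside the wildtype range, beside 1342 of 12733 genes and 18.6% of all genes tested.

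Among noncanonical Wnt ligands and receptors, Fzd7 was the 1 of 9 tested that passed, and the list median was -0.06. At an unadjusted p below 0.05 there were 5 of the 9, beside 1342 of the 12733 genes tested. For 5 of the 9 the groups did not overlap, beside 18.6% of all genes tested. The 4 besides Fzd7, named here after their values were seen, did not pass the test. The ligand Wnt5b was at 127 CPM in wildtype and 156 CPM in Cdx2P:Nr6a1 (log2 fold change 0.30, adjusted p = 0.128), the Wnt receptor Fzd2 at 36.0 and 46.2 CPM (0.36, adjusted p = 0.191), and the glypican Gpc4 at 45.4 and 52.9 CPM (0.22, adjusted p = 0.142). The receptor tyrosine kinase Ror1, a Wnt5a receptor, was at 15.7 and 11.3 CPM (-0.49, adjusted p = 0.262), and its log2 fold change was -0.30 with Cdx2P:Nr6a1 replicate 2 left out. DESeq2 called Wnt5b (adjusted p = 0.0105) and Fzd2 (adjusted p = 0.0397), the likelihood ratio test called Wnt5b (adjusted p = 0.0262), and the fit with no filter on low counts called Wnt5b, Fzd2 and Ror1. None of the 6 tested genes in the rest of the Fat and Dachsous system passed, with a median of -0.06. The lowest p there was that of Lix1, a relative of fly lowfat, which binds Fat and Dachsous (30.3 ± 2.12 against 28.5 ± 0.0644 CPM, adjusted p = 0.788). The transcriptional co-regulator Rere, of the atrophin family that acts with Fat, had a log2 fold change of -0.06 (adjusted p = 0.827), and Lix1l one of -0.06 (adjusted p = 0.851). With 1 library left out the log2 fold change ranged from -0.15 to -0.06 for Lix1, without wildtype replicates 4 and 2. It ranged from -0.12 to -0.0078 for Rere and from -0.10 to -0.01 for Lix1l, without Cdx2P:Nr6a1 replicates 2 and 1.

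None of the 9 tested genes in the rest of the core system passed, with a median of -0.01. Celsr2, a paralogue of Celsr1, had a log2 fold change of 0.14 (adjusted p = 0.690), the cytoplasmic signal transducer Dvl2 -0.08 (adjusted p = 0.732) and Prickle2 0.09 (adjusted p = 0.874). These small values moved by over 1.5 times with single libraries. Celsr2 was at 0.01 and Dvl2 at -0.04 without Cdx2P:Nr6a1 replicate 2, Celsr2 at 0.25 without Cdx2P:Nr6a1 replicate 1, and Prickle2 at 0.02 when wildtype replicate 4 was left out and 0.05 when Cdx2P:Nr6a1 replicate 2 was. None of the 15 effector genes passed, with a median of 0.03. Of the 15, 12 were above 0, where 6326 of the 12733 genes tested were above 0. At an unadjusted p below 0.05 there were 2 of the 15, beside 1342 of the 12733. Dact1, a binding partner of Dishevelled, was measured at 40.2, 54.7, 47.5 and 47.9 CPM in wildtype and at 56.5 and 78.1 CPM in Cdx2P:Nr6a1. Both transgenic libraries were above all wildtype libraries, and the log2 fold change of 0.50 (SE 0.14) did not pass the test (adjusted p = 0.143). The adjusted p of Dact1 was 0.0211 with the likelihood ratio test and 0.00520 with DESeq2. With no filter on low counts it was 1.36e-11, though the log2 fold change was still 0.50. Its log2 fold change was 0.24 with Cdx2P:Nr6a1 replicate 2 left out and 0.72 with replicate 1 left out. The formin Daam1, which binds Dishevelled, had 72.6 ± 5.11 against 83.5 ± 1.47 CPM (adjusted p = 0.279), and the epithelial transcription factor Grhl3, which is also in the surface ectoderm list, had 18.2 ± 2.93 against 22.2 ± 3.56 CPM (adjusted p = 0.622). The log2 fold change of Grhl3 was 0.28, and it came to 0.12 with Cdx2P:Nr6a1 replicate 1 left out, 0.43 with Cdx2P:Nr6a1 replicate 2 left out and 0.18 with wildtype replicate 2 left out.

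None of the 16 tested genes of the Scribble and apicobasal complexes passed, with a median of 0.02. At an unadjusted p below 0.05 there were 5 of the 16, beside 1342 of the 12733 genes tested. The lowest p values there were those of the scaffold Dlg4 (43.2 ± 1.69 against 48.5 ± 0.763 CPM, adjusted p = 0.237) and the Par6 genes Pard6g (111 ± 2.09 against 102 ± 2.70 CPM, adjusted p = 0.353) and Pard6b (13.8 ± 0.763 against 16.6 ± 2.15 CPM, adjusted p = 0.387). The other 2, named after their values were seen, were Llgl2, a partner of Scrib at the basolateral membrane (28.0 against 34.8 CPM, log2 fold change 0.31, adjusted p = 0.419), and Crb3, of the apical Crumbs complex (4.01 against 5.11 CPM, 0.34, adjusted p = 0.419). Llgl2 was called with no filter on low counts (adjusted p = 0.0140). With Cdx2P:Nr6a1 replicate 1 left out, the log2 fold change of Llgl2 was 0.17, and that of Pard6b was 0.13 against 0.26 with all libraries. The Hippo pathway, a growth-control cascade that Fat signals to in flies, had none of 20 tested genes past the test and none at an unadjusted p below 0.05, with a median of -0.00. Its YAP target Cyr61 was at 37.9 ± 3.53 against 43.6 ± 4.16 CPM (log2 fold change 0.19, or 0.10 without Cdx2P:Nr6a1 replicate 1, adjusted p = 0.485), the scaffold Wwc1 at 34.3 ± 3.19 against 38.2 ± 0.196 CPM (adjusted p = 0.610) and the kinase Lats1 at 64.0 ± 1.88 against 60.3 ± 0.984 CPM (adjusted p = 0.616).

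The genes whose pattern over the 6 libraries was most like that of Fat3 were found among 12728 genes by the root mean square difference of log2 CPM, each gene centred on its own mean. The nearest were Wscd1 (difference 0.0437), the Wnt receptor Fzd1 (0.0686), Fam131b (0.0715), Utrn (0.0759), which encodes the dystrophin relative utrophin, and A130014A01Rik (0.0769). Utrn was at 64.1 CPM in wildtype and 93.8 CPM in Cdx2P:Nr6a1, and Fzd1 at 68.9 and 88.7 CPM. A higher level in Cdx2P:Nr6a1 is built into this choice, since the likeness is to Fat3 over these same 6 libraries, so these levels are given without a test. The other 9 members were much farther from Fat3, from 0.237 for Vangl1 to 0.372 for Fat1.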

How the data were processed

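PolyA RNA-seq libraries (TruSeq Stranded mRNA) were made from dissected E10.5 tailbuds. The values are whole-number read counts per gene that the authors deposited for 6 libraries. The labels name STAR, edgeR and the mm10 build, and the counting program and its use of strand are not given in the sources used here. A second table of the authors' own fold changes and p-values was not used. CPM were computed from column totals and RPKM from the deposited gene lengths. Genes with a count above 10 and CPM above 2 in at least 2 libraries were tested (edgeR 4.0.16, TMM normalization, quasi-likelihood test, two-sided, Benjamini-Hochberg adjustment, false discovery rate 0.05), with all 6 libraries in 1 fit of group alone. The likelihood ratio test, DESeq2 1.42.0, limma 3.58.1 voom, robust estimation, other scalings and filters, a replicate block and leaving out each library were the 15 alternatives. Adjusted p-values are over all genes tested. The biological coefficient of variation was 9.40%. The deposited counts come from 44073460 to 67183802 counts a library. Intervals are for the log2 fold change and rest on the spread between these libraries.

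The members and gene lists were chosen with earlier results of these data known. Genes named in the text were all members, Nr6a1, every gene called in the wider and marker lists, up to 3 genes by lowest p in each wider list with none called, and the 5 genes nearest in pattern to the member with the lowest p. T, Tbx6, Sox2, Olig2, Wnt5b, Fzd2, Gpc4, Ror1, Llgl2 and Crb3 were named after their values were seen. Gene positions are those listed with the deposited counts, on the mm10 build, and promoter sequences are from RefSeq on GRCm38.p6. Protein sequences were not used here. The labels number replicates but do not say that a number marks a shared litter or day. P-values test the difference between groups against the spread between these samples.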

Additional observations from a re-analysis of the deposited data

How the results depend on the processing

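Against 0 members called, the likelihood ratio test called 1, and DESeq2, no filter on low counts and the replicate block called 2 each. Of the wider polarity genes, 1 was called, against 3, 4, 6 and 7 under the likelihood ratio test, DESeq2, no filter and the replicate block. Over all genes tested, 203 were called, against 401, 477, 876 and 442 in the same order, and from 61 to 175 with 1 library left out. The count was 134 without wildtype replicate 4 and 61 without either Cdx2P:Nr6a1 library. DESeq2 gave no adjusted p for 5 genes. The log2 fold change of Scrib was -0.01 with all libraries and from -0.050 to 0.031 with 1 library left out, above 0 without wildtype replicate 1 (0.025) and without Cdx2P:Nr6a1 replicate 1 (0.031), and the cause was not tested. For the other 9 members the sign was the same in all 15 alternatives. The lowest adjusted p, 1.63e-08 for Fat3 and 0.000191 for Fat1, came from the edgeR quasi-likelihood test with no filter on low counts. The same test with the filter gave 0.157 and 0.174. Without the filter the log2 fold changes were 0.43 and -0.32, close to those with it, so the small values do not reflect larger differences. With the replicate block the log2 fold change was 0.50 for Fat3 and -0.38 for Fat1. Wildtype replicates 3 and 4 had no same-numbered Cdx2P:Nr6a1 library, so in that fit the group difference came from replicates 1 and 2 alone. The numbers were not taken to pair the samples, since the labels do not say that they mark a shared litter or day. Deviations of same-numbered libraries from their group means correlated at 0.27 for replicate 1 and -0.23 for replicate 2. Deviations of the 2 Cdx2P:Nr6a1 libraries are equal and opposite, so the 2 correlations are not separate checks and cannot decide on pairing. With 2 Cdx2P:Nr6a1 libraries, small differences stay within the intervals given.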
